A study of Mus musculus with 8 samples.

Results

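RNA levels of 6 cell surface receptor genes of the heart, Gpr22, Adrb1, Adra1a, Adra1b, Chrm2 and Adora1, were examined in single and double colored mouse cardiomyocytes. They were chosen by the raw counts of the 4 single against the 4 double colored libraries, around the lower Gpr22 in single colored cells, and were taken by symbol from the 37991 genes of the count table. All 6 were among the 12466 genes that passed the filter on low counts. Since this contrast chose them, its values for the 6 are a description and carry no test. The hearts came from mice with a MerCreMer recombinase under the alpha-MHC promoter, which is active in cardiomyocytes, and the MADM reporter (mosaic analysis with double markers), in which recombination followed by cell division can leave a daughter cell with 1 of the 2 colors. All hearts received adenovirus carrying 4 cell cycle genes, so neither group is an uninjected control, and adult cardiomyocytes were collected 2 weeks later. The 4 double colored libraries are labelled as treated cells that did not go through the cell cycle, and the 4 single colored libraries as treated cells that did. The age and sex of the mice and the number of hearts are not given in the sources used here, nor is it stated that replicates came from separate animals. The p-values below therefore reflect only how far these libraries vary, and that variation may be technical.

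These receptors all signal through heterotrimeric G proteins. The beta1-adrenergic receptor (Adrb1) couples to Gs and raises cyclic AMP, which increases the rate and force of contraction, and the alpha1-adrenergic receptors (Adra1a, Adra1b) couple to Gq and phospholipase C. The M2 muscarinic receptor (Chrm2) and the A1 adenosine receptor (Adora1) couple to Gi, lower cyclic AMP and open a potassium channel made of Kcnj3 and Kcnj5. Gpr22 is an orphan receptor, without an established ligand, that is expressed in brain and heart and couples to Gi/o.

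The libraries held 23820700 to 30082278 counted reads, of which mitochondrially encoded genes took 84.2% to 88.3% in double and 77.5% to 85.9% in single colored libraries. Values below are counts per 1000000 reads (CPM) after TMM scaling, a size correction that assumes most genes are unchanged. The 22 cardiomyocyte markers summed to 24656 to 32257 CPM in double and 15262 to 28124 CPM in single colored libraries, with Tnnc1 at 0 reads in every library. Single colored libraries also held more RNA of immune cell markers, 263 to 457 against 123 to 173 CPM for myeloid and 18.0 to 35.7 against 1.88 to 4.94 CPM for lymphocyte genes. Single colored replicate 1 had the lowest cardiomyocyte sum and the highest myeloid, lymphocyte and fibroblast sums of the 8 libraries. The part of these shifts in the receptor values was not tested. Ratios to cardiomyocyte genes are given below as a description. In bulk libraries, fewer cells of a type and less RNA per cell cannot be told apart. None of the 4 injected genes passed an adjusted p of 0.05 by edgeR's quasi-likelihood test, and 0 of the 4 had an unadjusted p under 0.05. DESeq2 and limma-voom called 0. These counts of calls do not show that the levels were equal in the 2 groups.

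Sequences upstream of the RefSeq start sites are shown for Gpr22 and Chrm2, whose groups did not overlap after TMM scaling. The sequence of Kcnj3, the channel gene that fell, is shown too. They are from RefSeq on GRCm38.p6, while the count table uses mm9, and 6 of 7 genes looked for were matched (Adra1a was not). Chrm2 and Kcnj3 are printed for all 250 bases before the start, while for Gpr22 the 186 bases farthest from the start are printed and those nearest to it are not. Capitals in Gpr22 mark TATAAA, which lies 133 bases before the RefSeq start, counted over the whole window.
Gpr22 (chr12:31713948-31714133, minus strand): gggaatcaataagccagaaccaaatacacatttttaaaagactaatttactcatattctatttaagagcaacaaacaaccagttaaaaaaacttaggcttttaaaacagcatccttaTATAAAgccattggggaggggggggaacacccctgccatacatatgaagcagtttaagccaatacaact
Chrm2 (chr6:36387834-36388083, plus strand): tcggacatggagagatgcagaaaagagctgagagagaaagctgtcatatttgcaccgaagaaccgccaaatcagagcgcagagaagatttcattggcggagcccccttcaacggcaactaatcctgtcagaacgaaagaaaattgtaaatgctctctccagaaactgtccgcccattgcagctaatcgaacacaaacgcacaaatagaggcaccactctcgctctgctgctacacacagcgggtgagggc
Kcnj3 (chr2:55435720-55435969, plus strand): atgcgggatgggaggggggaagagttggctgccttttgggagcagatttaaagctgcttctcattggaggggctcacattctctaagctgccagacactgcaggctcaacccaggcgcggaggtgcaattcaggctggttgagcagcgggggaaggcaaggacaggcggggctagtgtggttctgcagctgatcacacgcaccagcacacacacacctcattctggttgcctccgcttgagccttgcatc

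TATAAA was searched on both strands in the 250 bases before each start, and 12.4% of 32851 such RefSeq windows hold it. The 250-base window of Gpr22 was 39.6% G and C with 1 CpG, against a median of 52.4% over all windows and 74.0% for Adrb1, while those of Chrm2 and Kcnj3 had 50% and 58.4%. The short cyclic AMP response motif TGACG, also part of TGACGTCA, was found in Adrb1, 90 bases before the start, and in 17.8% of all windows. Searched likewise, TGACGTCA was in 1.55% of all windows, the MEF2 site in 3.20%, AGATAA in 9.99%, CAAGTG in 11.6% and AAGGTCA in 4.08%. None of these last 5 was found in a window of Gpr22, Chrm2, Kcnj3, Adrb1, Adra1b or Adora1. A match or its absence in these letters is a description of the window only.

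Gpr22 was the receptor with the largest difference. The gene (ENSMUSG00000044067) lies on chromosome 12 at 32391732 to 32398812 in mm9, on the minus strand and within the span of Cog5, which runs on the plus strand, and it shares no exon sequence with another gene. Double colored replicates 1 to 4 held 6.87, 7.73, 10.9 and 9.90 CPM, and single colored replicates 1 to 4 held 2.17, 5.27, 3.46 and 3.85 CPM. Every double colored library lay above every single colored one. These values rest on 164, 170, 252 and 237 reads and on 83, 151, 133 and 97 reads. The means were 8.85 ± 1.87 and 3.69 ± 1.27 CPM (SD, n = 4 each), so single colored cells had 41.5% of the double colored level, a log2 fold change of −1.27 ± 0.25 (SE). Of the 12466 genes, 0.433% had a fold change at or below this one. Libraries with the same replicate number, which were taken as pairs, differed by −1.63, −0.55, −1.63 and −1.35 on the log2 scale, so the second pair was the closest. Cog5, whose span holds Gpr22 (an intracellular transport gene of the Golgi), had 6.10 ± 0.782 and 5.51 ± 1.25 CPM (SD, n = 4 each). Its log2 difference was −0.15 ± 0.21 (SE, edgeR adjusted p = 0.813).

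**Figure D1:**
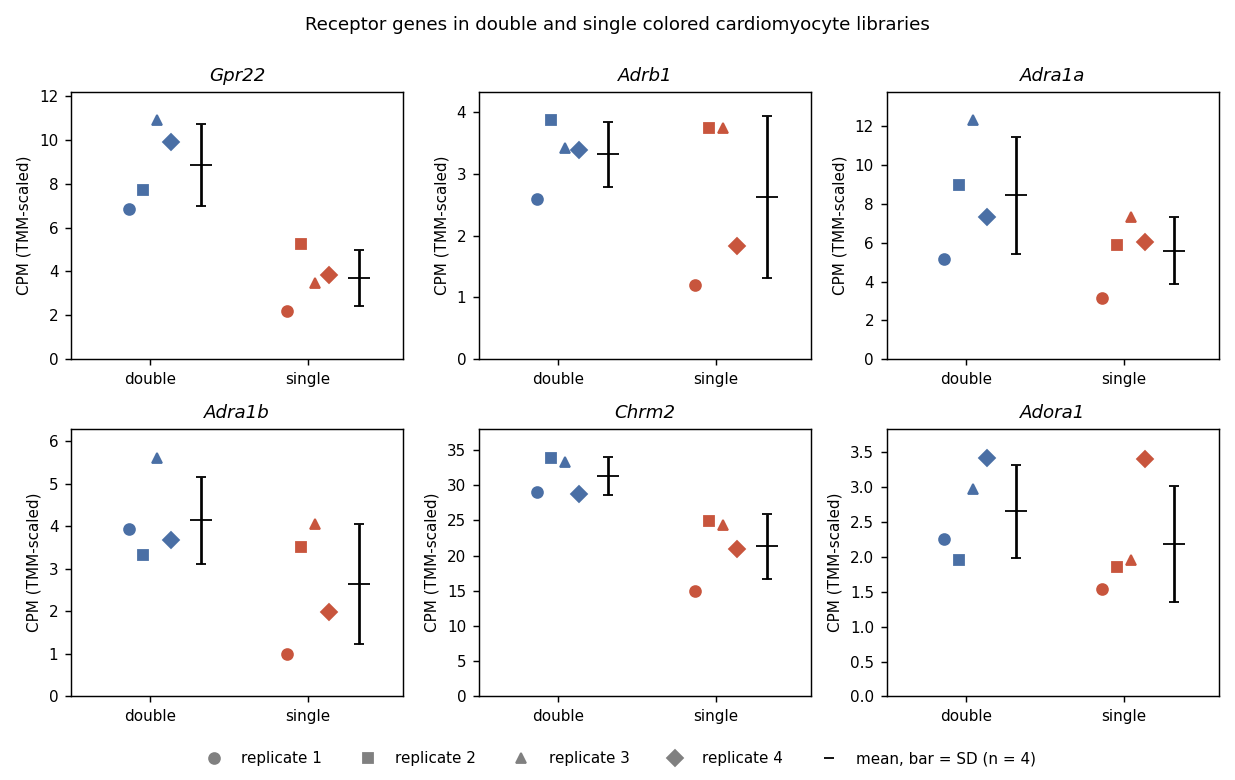
TMM-scaled CPM of the 6 receptor genes in each double and single colored library, with the symbol giving the replicate number and the bar the mean and SD of 4. Gpr22 and Chrm2 are the panels in which the groups do not overlap, and single colored replicate 1 is the lowest point in all 6 panels.

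Among the adrenergic receptors, the groups overlapped for all 3 genes. Adrb1, the main beta receptor of cardiomyocytes (chromosome 19, 56796862 to 56799352 in mm9, plus strand, 1 exon block), held 2.60, 3.86, 3.41 and 3.39 CPM in double colored replicates 1 to 4. In single colored replicates 1 to 4 it held 1.21, 3.73, 3.75 and 1.83 CPM. Replicates 2 and 3 of the single colored cells were thus at the double colored level, and replicates 1 and 4 were below it. The means were 3.31 ± 0.527 and 2.63 ± 1.31 CPM (SD, n = 4 each), a log2 fold change of −0.33 ± 0.33 (SE).

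Adra1a (chromosome 14, 67254088 to 67390005, plus strand) held 5.15, 9.0, 12.3 and 7.36 CPM in double colored and 3.17, 5.86, 7.31 and 6.03 CPM in single colored replicates 1 to 4. Its double colored libraries were the more spread, and replicate 1 was the lowest of both groups. The means were 8.45 ± 3.02 and 5.59 ± 1.74 CPM (SD, n = 4 each), a log2 fold change of −0.60 ± 0.27 (SE). All 4 numbered pairs had less Adra1a in the single colored library, with log2 differences from −0.75 to −0.28.

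Adra1b, the other alpha1 receptor (chromosome 11, 43588108 to 43714712, minus strand), held 3.94, 3.32, 5.62 and 3.68 CPM in double colored and 0.996, 3.52, 4.06 and 1.98 CPM in single colored replicates 1 to 4. As for Adrb1, single colored replicates 2 and 3 were within the double colored range. The means were 4.14 ± 1.02 and 2.64 ± 1.41 CPM (SD, n = 4 each), a log2 fold change of −0.65 ± 0.35 (SE). The pairs ran from −1.91 to 0.09 on the log2 scale, so the 2 alpha1 genes did not follow each other pair by pair.

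Of the Gi-coupled receptors, Chrm2, through which the vagus nerve slows the heart, was the better measured (chromosome 6, 36338084 to 36478414, plus strand). Double colored replicates 1 to 4 held 29.1, 33.9, 33.2 and 28.8 CPM, and single colored ones held 15.0, 24.9, 24.3 and 21.0 CPM. No single colored library reached the lowest double colored one. The means were 31.2 ± 2.71 and 21.3 ± 4.56 CPM (SD, n = 4 each), a log2 fold change of −0.55 ± 0.16 (SE), and the 4 pairs ran from −0.95 to −0.44. An exon overlap with 9330158H04Rik on the opposite strand covers 2.35% of its exon length.

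Adora1, the A1 receptor through which adenosine slows conduction (chromosome 1, 136095800 to 136132008, minus strand), held 2.26, 1.95, 2.98 and 3.43 CPM in double colored and 1.55, 1.85, 1.95 and 3.41 CPM in single colored replicates 1 to 4. Replicate 4 was the highest of both groups, and the groups overlapped. The means were 2.66 ± 0.670 and 2.19 ± 0.833 CPM (SD, n = 4 each), a log2 fold change of −0.29 ± 0.30 (SE), the smallest of the 6. Mybph on the opposite strand overlaps 11.4% of its exon length, and no source used here says whether strand was counted, so reads of the 2 genes cannot be told apart there.

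All 6 receptors had a negative fold change, as had 50.6% of all tested genes, with a median of −0.58 against −0.01 over all genes. Of the 21 tested cardiomyocyte markers, 19 were negative too, with a median of −0.36. Groups did not overlap for 2 of 6, where 9.14% of all genes did not overlap in either direction and 3.76% were lower, and 1 of 6 (Gpr22) was past an adjusted p of 0.05 by edgeR, where 2.48% of all genes were past it in either direction, 2.32% higher and 0.16% lower. With the replicate number as a block, 3 of 6 were past it (Gpr22, Chrm2 and Adra1a), against 7.53% of all genes in either direction and 2.57% lower, and without double colored replicate 4, 0 of 6. Nothing is read from any of these counts in either fit, since the contrast chose the genes. By TMM-scaled CPM, single colored replicate 1 was the lowest of the 8 libraries for 6 of 6 receptors. This library had the largest TMM factor (1.44). Under library totals, Adra1a and Adora1 were instead lowest in a double colored library, and Chrm2 in single colored replicate 4. In double colored replicates 3 and 4, all 6 receptors were above their own mean over the 8 libraries, and in single colored replicates 1 to 4, 0, 2, 3 and 1 of them were. Reads per receptor and library ran from 38 to 933, a counting error of 16.2% to 3.27% that does not include the spread between libraries.

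Levels of different genes were compared per kilobase of exon length as CPM over exon kilobases (RPKM). In double colored cells Chrm2 was highest at 5.16 ± 0.447, followed by Gpr22 at 1.92 ± 0.405, Adrb1 at 1.33 ± 0.211, Adra1b at 1.22 ± 0.301, Adra1a at 0.969 ± 0.346 and Adora1 at 0.459 ± 0.116 RPKM (SD, n = 4 each). Chrm2 was the only one whose libraries were all above those of the next gene, and the ranges of all other neighbors overlapped. Within each library, Gpr22 was above Adrb1 in 4 of 4 double colored libraries. In single colored cells Gpr22, at 0.801 ± 0.277 RPKM, came after Chrm2 at 3.52 ± 0.753 and Adrb1 at 1.06 ± 0.526 (SD, n = 4 each), and Adrb1 was above it in 3 of 4 libraries. Adra1b (0.781 ± 0.416), Adra1a (0.641 ± 0.199) and Adora1 (0.379 ± 0.144 RPKM, SD, n = 4 each) followed with overlapping ranges. Scaled by library totals, Adra1b stood before Gpr22 in single colored cells by its mean (0.923 against 0.913 RPKM). Within libraries it was above Gpr22 in 1 of 4. Of the summed RPKM of the 6 receptors, Gpr22 made up 17.3% ± 2.31 in double and 11.2% ± 1.87 in single colored cells, and Chrm2 46.9% ± 4.03 and 50.1% ± 4.80 (SD, n = 4 each).

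**Figure D2:**
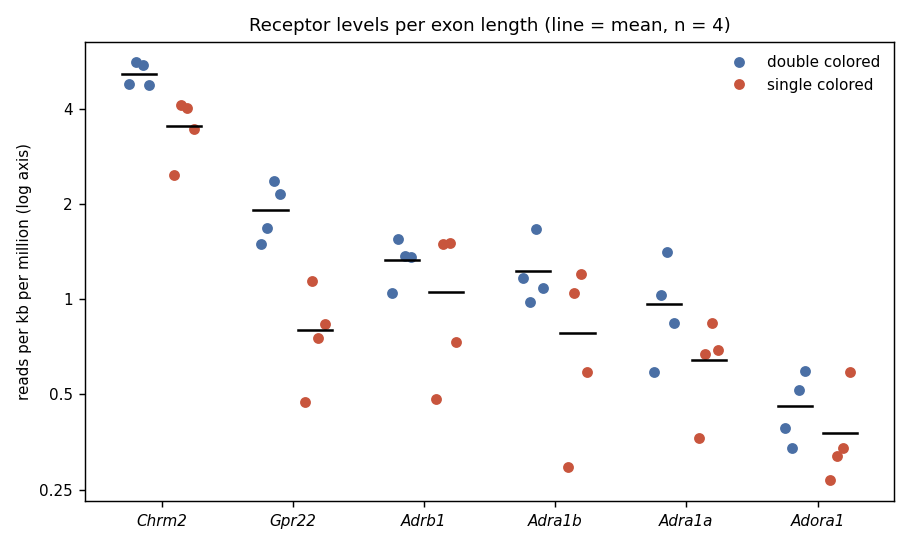
RPKM (log axis) of each receptor in the 4 double and 4 single colored libraries, with lines at the means. Chrm2 stands above the rest in both groups, and Gpr22 is the second level in double colored cells and the third in single colored cells.

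Ratios of reads within a library do not depend on library scaling. Gpr22 had 23.6, 22.8, 32.8 and 34.4 reads per 100 Chrm2 reads in double colored replicates 1 to 4 and 14.5, 21.1, 14.3 and 18.4 in single colored ones (means 28.4 ± 6.05 and 17.1 ± 3.30, SD, n = 4 each), without overlap. Per 100 Adora1 reads, Gpr22 had 338 ± 50.3 and 179 ± 75.4 reads (SD, n = 4 each), also without overlap. That gap was narrow, with 285 in the highest single colored library and 289 in the lowest double colored one. Against each of the adrenergic receptors the ratio was lower in single colored cells on average, and the groups overlapped. Per 10000 reads of the cardiomyocyte markers, Gpr22 had 2.79, 2.40, 3.53 and 3.09 reads in double and 1.43, 2.05, 1.23 and 1.57 in single colored replicates 1 to 4, so the groups stayed apart. On that measure the groups overlapped for the other 5 receptors, with Chrm2 at 10.5 ± 1.16 and 9.18 ± 0.668, Adrb1 at 1.10 ± 0.0673 and 1.08 ± 0.365 and Adora1 at 0.890 ± 0.20 and 0.956 ± 0.327 reads (SD, n = 4 each). The share of all genes that stay apart in such ratios was not counted, and Gpr22 was picked for being lower.

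Another scaling turned the direction of Adrb1 and Adora1 but not that of the other 4 receptors. Scaling by the cardiomyocyte markers raised the median of all genes by 0.40 and library totals raised it by 0.49 on the log2 scale. Gpr22 stood at −0.94 and −0.86 under these, Chrm2 at −0.22 and −0.088, Adra1a at −0.29 and −0.15, and Adra1b at −0.39 and −0.20. Adrb1 was at −0.05 and 0.14 and Adora1 at 0.06 and 0.13, so the direction of both turned under library totals and that of Adora1 under either. Relative to the median of all genes, Gpr22 was at −1.34 and −1.35, and the other 5 ran from −0.79 to −0.34. Without single colored replicates 1 and 3, whose TMM factors (1.44 and 1.42) stood apart, Gpr22 was at −0.95, Chrm2 at −0.44 and Adora1 at −0.02. In the authors' deposited table, with the sign turned, the 6 log2 fold changes were −1.27 for Gpr22, −0.34 for Adrb1, −0.60 for Adra1a, −0.65 for Adra1b, −0.56 for Chrm2 and −0.30 for Adora1.

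**Figure D3:**
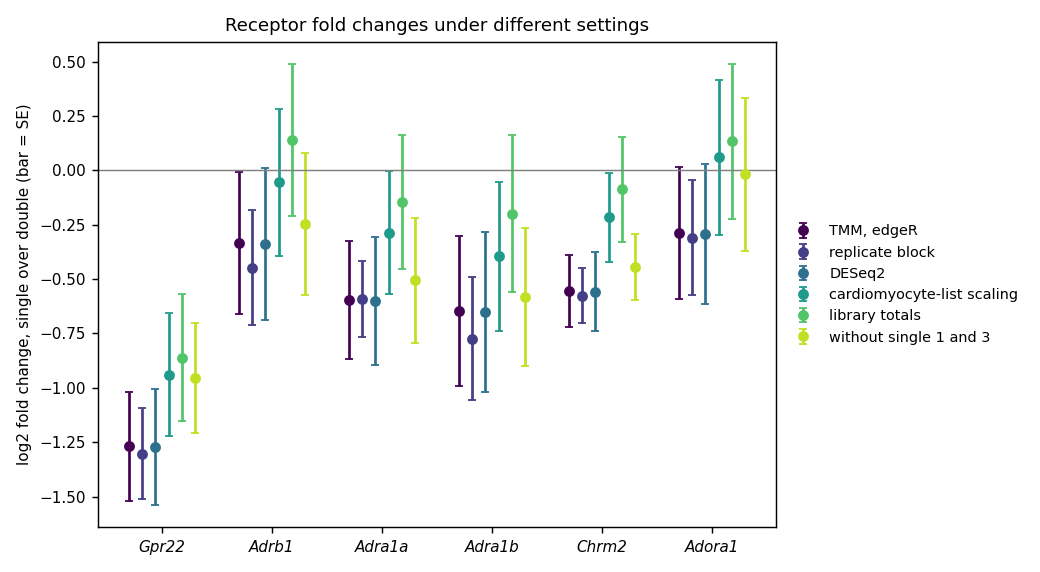
Log2 fold change (single over double colored) of each receptor, with its SE, in 6 settings of scaling, model and libraries. Gpr22 is below −0.8 in every setting drawn, while Adrb1 and Adora1 reach or cross 0 under library totals or cardiomyocyte scaling.

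The genes whose profile over the 8 libraries was most like that of Gpr22 were found by the root mean square difference of centred log2 CPM over 12465 genes. They were Rps19bp1 (0.197), Plin5 (0.205), Isoc2a (0.207), Kcnj3 (0.210), Whrn (0.235) and Tnni3k (0.242), all on the log2 scale. Plin5 encodes a lipid droplet coat protein of oxidative tissue and Tnni3k a kinase of cardiomyocytes. Their likeness includes the difference between the groups, so their fold changes are not a separate result. Of the other receptors, Chrm2 was the most like Gpr22, at rank 183 with 0.435, followed by Adra1b at rank 308, Adra1a at 354, Adrb1 at 845 and Adora1 at 1654.

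**Figure D4:**
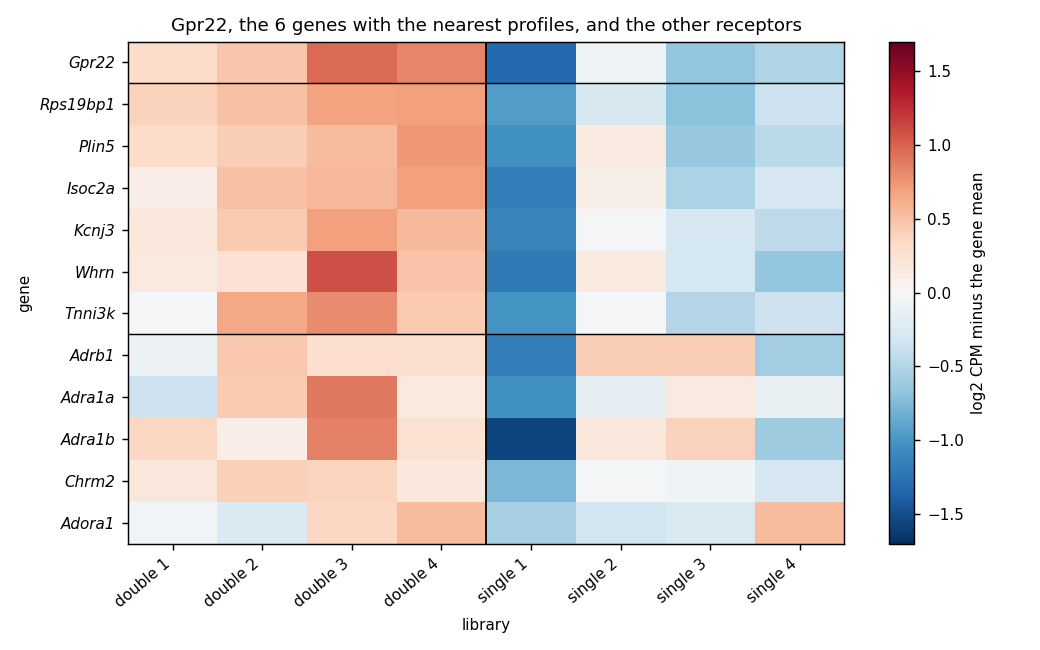
Log2 CPM minus each gene's mean (color) in the 8 libraries for Gpr22, the 6 genes nearest to it and the other receptors. Gpr22 and the 6 genes nearest to it have their lowest value in single colored replicate 1, as have the other receptors, and Adrb1 and Adra1b are above their mean in single colored replicates 2 and 3, where Gpr22 is below its own.

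Receptors of the same families outside the 6 were mostly near the limit of detection. Most of 13 further adrenergic, muscarinic and adenosine receptor genes did not pass the filter on low counts. Adora2a, another adenosine receptor, passed it and had 0.877 ± 0.392 and 0.233 ± 0.0529 CPM in double and single colored cells (SD, n = 4 each) from 82 and 31 reads in all. Its log2 difference was −1.88 ± 0.51 (SE, edgeR adjusted p = 0.0632). It was called by DESeq2 and not by limma-voom. Adrb3 and Adra2c had 0 reads in all 8 libraries. The other muscarinic genes (Chrm1, Chrm3, Chrm4 and Chrm5) had 0 to 3 reads in all double colored and 2 to 11 in all single colored libraries, against up to 933 in 1 library for Chrm2. Th and Chat, which mark sympathetic and parasympathetic neurons, had 0 reads, and Sox10 of Schwann cells had 6 and 5 in all.

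In the edgeR fit without a block, the potassium channel opened by Chrm2 and Adora1 was the list with the 1 signalling gene that fell. With the block, genes of other lists fell too, as given below. Kcnj3, a subunit of this channel, held 8.50, 10.2, 12.2 and 11.0 CPM in double colored and 3.41, 7.33, 6.11 and 5.48 CPM in single colored replicates 1 to 4, without overlap. It fell by 0.91 ± 0.22 on the log2 scale (SE, edgeR adjusted p = 0.0351). The call was lost when any of 5 of the 8 libraries was left out (double colored replicates 2, 3 and 4 and single colored replicates 1 and 4, adjusted p up to 0.112), and with cardiomyocyte scaling (−0.59, adjusted p = 0.231) or library totals (−0.48, adjusted p = 0.235). An unnamed gene on the opposite strand overlaps 31.1% of the exon length of Kcnj3. Kcnj5, its partner subunit, had 21.1 ± 3.46 and 16.2 ± 3.86 CPM (SD, n = 4 each). Its log2 difference was −0.39 ± 0.18 (SE, edgeR adjusted p = 0.338). The 8 atrial markers, genes of cells rich in this channel, summed to 9.07 to 35.6 CPM in double and 27.0 to 56.9 CPM in single colored libraries, while 3 of the 5 tested had a negative log2 fold change (median −0.20). Their part in the Kcnj3 difference was not tested.

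Across 10 lists of 207 genes that carry or set receptor signals, 151 genes were tested, and 5 of them (3.31%) passed by edgeR at an adjusted p of 0.05, against 2.48% of all genes. Of the 5, 4 rose and Kcnj3 fell. With the replicate number as a block, 15 passed, 6 higher and 9 lower, where 7.53% of all genes passed and 2.57% were lower. The median of the 151 without the block was −0.11 against −0.01 over all genes. Among 19 G protein subunits, Gng2, a gamma subunit, rose by 1.10 ± 0.27 on the log2 scale (SE, edgeR adjusted p = 0.0401). Gnai2, the Gi subunit (0.11), Gnaq (0.20) and Gnas, the Gs subunit (−0.15), did not pass. Gnas was poorly measured, with 196 reads in all double and 245 in all single colored libraries. Its value ran from −0.36 to 0.20 with 1 library left out. Other genes, among them some on the opposite strand, overlap 22.0% of its exon length. Among 20 receptor kinases, arrestins and RGS proteins, Rgs1, which speeds the return of G proteins to rest, rose by 2.08 ± 0.45 (SE, edgeR adjusted p = 0.0359), and the receptor kinases Grk2 (0.29) and Grk5 (0.02) did not pass.

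In the branch of phospholipase C and protein kinase C, which the alpha1 receptors use, 2 of 18 genes passed, both higher. Of the 18, 10 had a positive and 8 a negative fold change, with a median of 0.09. Prkcd, a protein kinase C, went from 3.72 ± 1.24 to 8.53 ± 1.22 CPM (SD, n = 4 each; log2 fold change 1.20 ± 0.24 SE, edgeR adjusted p = 0.0146). Plcb2, a phospholipase C, went from 0.551 ± 0.287 to 2.29 ± 0.773 CPM (SD, n = 4 each; log2 fold change 2.05 ± 0.42 SE, edgeR adjusted p = 0.0158). Prkcd kept its call without any 1 of the 8 libraries, Plcb2 lost it without single colored replicate 1 (adjusted p = 0.0783), Rgs1 without any of the 4 double colored libraries and Gng2 without any library but single colored replicate 3. Rgs1, Plcb2, Prkcd and Gng2 are also expressed in leukocytes, and 6 of 14 myeloid and 8 of 9 tested lymphocyte markers rose in the same comparison. The part of those cells in the 4 genes was not tested.

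None of the genes tested in the other lists passed by edgeR without a block. In the list of adenylyl cyclases and phosphodiesterases 0 of 21 passed (4 had an unadjusted p under 0.05, and DESeq2 called 0), among cyclic AMP effectors and anchoring proteins 0 of 23 (3, and DESeq2 called Pkia), and among targets of beta-adrenergic phosphorylation 0 of 13 (2, and DESeq2 called 0). Of the last, 10 of 13 had a negative fold change, among them Pln, the brake on the calcium pump, at −0.53 ± 0.20 (SE, edgeR adjusted p = 0.218), and Tnni3 at −0.53 ± 0.21 (SE, edgeR adjusted p = 0.230). The median of these 13 was −0.37, and that of the 21 tested cardiomyocyte markers, which include Pln and Tnni3, was −0.36 with 19 negative. Under cardiomyocyte scaling and library totals Pln stood at −0.21 and −0.09, and Tnni3 at −0.23 and −0.10. Adcy6 and Adcy5, the main cyclases of the cardiomyocyte, stood at −0.50 (edgeR adjusted p = 0.218) and −0.32 (0.486). Of 14 peptide, lipid and amine receptors 0 passed (2 had an unadjusted p under 0.05, and DESeq2 called P2ry1), with P2ry1, a receptor for ADP, at −0.93 ± 0.28 (SE, edgeR adjusted p = 0.0944). Of 19 genes of transmitter and adenosine metabolism 0 passed (5, and DESeq2 called Slc22a3). limma-voom called 0 in each of these 5 lists. With the replicate number as a block, 15 of the 151 passed, 6 higher and 9 lower. In that fit 7.53% of all genes passed, and 2.57% of all genes were lower. The block added Gna13 and Adcy7 as higher, and P2ry1, Pde4a, Adcy6, Pkia, Pln, Tnni3, Rrad and Maob as lower.

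**Figure D5:**
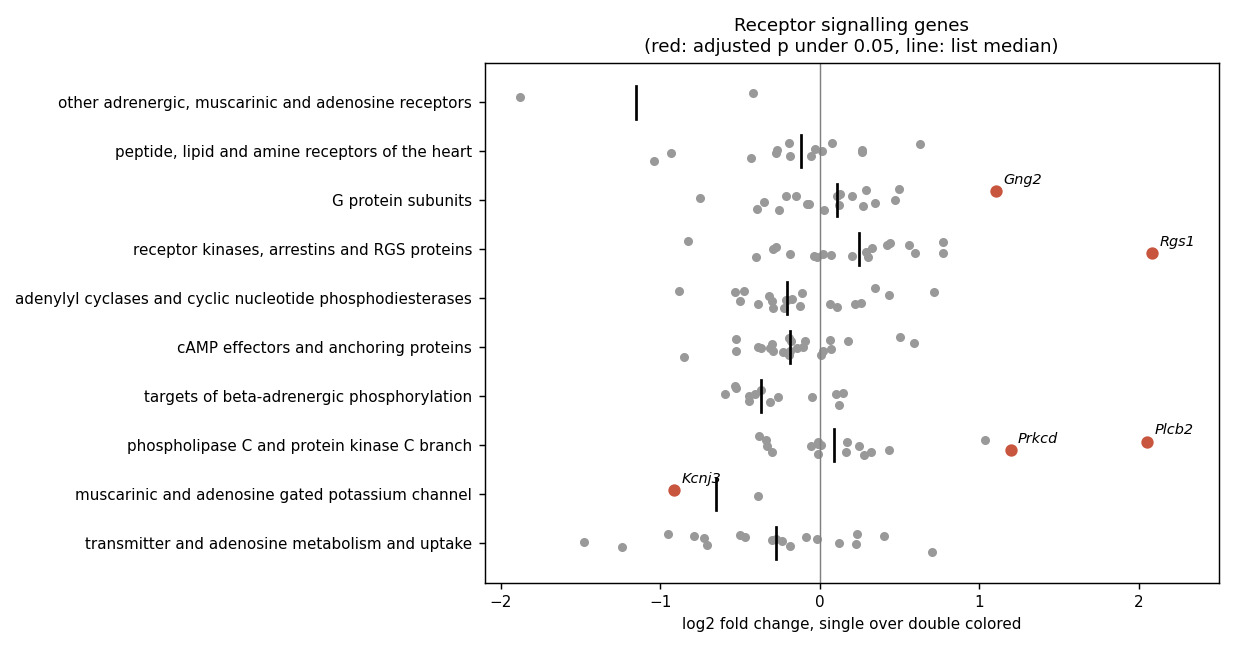
Log2 fold change (single over double colored) of each tested gene of the 10 signalling lists, with list medians as lines and genes past an adjusted p of 0.05 by edgeR in red. Kcnj3 is the red point on the negative side, and Gng2, Rgs1, Prkcd and Plcb2 are on the positive side.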

How the data were processed

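RNA was measured in 4 double and 4 single colored libraries of isolated mouse cardiomyocytes, made with a kit that amplifies small amounts of RNA, per the labels' protocols. The submitters' processing notes name STAR 2.5.2b, featureCounts, Subread and the build mm9. The deposited table holds raw read counts per gene, whole numbers per the file headers, which were entered as estimated counts and used without rounding. It also gives the authors' deposited log2 fold changes, which run from single to double colored cells and were turned here, and the exon length in bp. Symbols were matched for 32919 of 37991 genes.

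The fit was edgeR 4.0.16 in R 4.3.3 (filterByExpr with a minimum count of 10, TMM, robust quasi-likelihood F-test, Benjamini-Hochberg at 0.05 over 12466 genes), tested on simulated data. Log2 CPM for profiles used a prior count of 2. DESeq2 1.42.0, limma-voom (limma 3.58.1), other scalings, other filters and each library left out were alternatives, and leaving out single colored replicates 1 and 3 together was chosen after seeing the data. TMM factors were 0.733 to 0.972 (double colored) and 0.953 to 1.44 (single colored), and libraries held 3503353 to 6112595 nuclear reads.

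Same-numbered libraries deviated together across genes (correlations 0.257, 0.126, 0.136 and 0.139, others −0.213 to 0.108). The numbers were therefore taken as pairs for the pair differences and as a block in an alternative fit. The main fit, which gave the edgeR adjusted p-values printed above, had no block and so left the pairing out. What a number stands for is not stated.

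Named genes were the 6 receptors, in each signalling list those past the threshold or else up to 3 with the smallest p, textbook partners of the receptors, and the 6 genes nearest to Gpr22. The receptors and lists were chosen with earlier results of these data known. Sequences are RefSeq's on GRCm38.p6. The result of 1 listed gene is not reported here.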

Additional observations from a re-analysis of the deposited data

Results flagged for a closer look

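In 4 of 82 groups of 4 libraries examined, 1 library stood far from the other 3 by the size of its gap, and chance flags about 1 in 20 groups. Adora2a had 1.46 CPM in double colored replicate 4 and 0.628 to 0.727 CPM in the other 3. Mas1, a receptor for angiotensin-(1-7), had 0.593 CPM in single colored replicate 2 and 0.312 to 0.341 CPM in the others. Gng2 had 2.58 CPM in single colored replicate 3 and 4.61 to 4.84 CPM in the others. Rgs1 had 21.5 CPM in single colored replicate 1 and 5.24 to 7.89 CPM in the others. None of the 6 receptors had such a library in either group.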

How the results depend on the processing

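Gpr22 had a negative log2 fold change in all 17 alternatives, from −1.49 to −0.86 (−1.49 to −1.08 with 1 library left out), as had Chrm2 (−0.64 to −0.088), Adra1a (−0.78 to −0.15) and Adra1b (−0.95 to −0.20) in all that gave a value. Adrb1 (−0.57 to 0.14) was negative in 15 of 16 and Adora1 (−0.59 to 0.13) in 14 of 16. The filter at 5 CPM in 4 libraries gave no value for Adrb1, Adra1b and Adora1. Chrm2 moved to −0.088 under library totals and −0.22 under cardiomyocyte scaling. Receptor counts below are a description and no test, since the contrast chose the receptors. In the fit with the replicate block, which pairs same-numbered libraries, 939 genes passed (309 without it), 15 signalling genes (5) and 3 receptors (1). Genes passing, signalling genes and receptors among them were 805, 11 and 2 without a filter. DESeq2 called 556 genes and 10 signalling genes, library totals 1390 and 16, and the 5 CPM filter 97 and 1. Cardiomyocyte scaling left 3 signalling genes and 0 receptors, and leaving out single colored replicates 1 and 3 left 76 genes, 0 signalling genes and 0 receptors. With 1 library left out the counts were 134 to 304, 2 to 6 and 0 to 1, lowest for all genes and 0 for receptors without double colored replicate 4. The share of passing genes that were higher was 93.5%, against 65.9% with the block, 79.8% without a filter, 81.8% by DESeq2, 99.9% under library totals and 100% under cardiomyocyte scaling. In the order of levels, 4 of 6 ranks were kept in single colored cells under library totals, and 4 to 6 in either group with 1 library left out. The 38 to 933 reads per receptor and library give a counting error of 3.27% to 16.2%, which limits the smaller differences.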
